A study of Mus musculus with 9 samples.

Results

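Mitosis genes are 38 genes of the G2 phase and of cell division: cyclins and their kinases, and proteins of the checkpoint, kinetochore, spindle, cytokinesis and chromosomes. They were listed by symbol for what they are known to do, with earlier results of these data known, and all 38 were found among the 56289 genes that the authors deposited. Cyclin B1 builds up before division and binds Cdk1, and when Cdc25 phosphatases switch this kinase on, the chromosomes condense and the spindle forms. The checkpoint then delays anaphase until every kinetochore is attached to the spindle, after which the anaphase-promoting complex has cyclin B and securin destroyed, the sister chromatids part and the cell cleaves. Most of these transcripts build up late in the cell cycle and are scarce in resting cells, so cultures with many dividing cells hold more of them.

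The libraries come from cultures labelled RAW264.7, a macrophage-like mouse line of strain BALB/c. The 3 groups of 3 libraries each were untreated (Con), treated for 24 h with the inflammatory cytokine TNF-α, or treated for 24 h with TNF-α together with WBT, a herbal tablet used in China against rheumatoid arthritis. The labels of the last group say WBP, and it is called TNF-α+WBT here as in the study. The study speaks of 3 biological replicates, and the labels do not say whether these were separate cultures. Paired-end libraries of poly(A) RNA were made with a kit not described as marking the strand, and the values are FPKM, which divide a gene's fragments by transcript length and by library size. Depth is not stated and was estimated here, from the spacing of low values in genes with a single transcript. It came to 20215000 to 26052500 fragments for Con (median 21590500), to 18888500 to 22424500 for TNF-α (median 21076500) and to 16845500 to 19757000 for TNF-α+WBT (median 18311000). The spacing was not sharp: per library, 51.5% to 55.2% of the low values came within 0.1 of whole fragments, beside 20% by chance. A narrower spacing, from mates mapped alone, also fits and would mean a greater depth, and the wider one was taken. Fragment numbers below are therefore rough.

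The label macrophage was checked against marker genes first. Of 18 macrophage genes only Cd14 and Mertk lay above 1 FPKM in all 9 libraries, and Cd14, the most abundant, averaged 5.25 ± 0.616 FPKM (SD over 9 libraries). The lineage-defining genes Spi1, Itgam, Ptprc, Adgre1, Cybb, Ctss and Tyrobp read 0 in every library. The summed level of the 18 genes ran from 8.68 to 10.8 FPKM per library. Of 18 fibroblast genes 15 passed 1 FPKM in all 9 libraries, with S100a4 the most abundant at 1177 ± 95.0 FPKM (SD, n = 9 libraries), and of 12 Schwann cell genes 8 did. All 12 genes that every cell uses passed as well. The values thus go against the label, and the cells are called the cultures below. In bulk RNA, fewer dividing cells and less mitotic RNA per cell cannot be told apart.

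Genes known to respond to TNF-α were checked next with limma, the test described below. It called 11 of 15 higher than Con with TNF-α, beside 4.86% of all genes called. With TNF-α+WBT it called 11 higher than Con, beside 3.71%. Nfkbia, the inhibitor that NF-κB itself induces, had 25.2, 26.0 and 22.8 FPKM for Con, 78.7, 81.7 and 80.4 for TNF-α and 69.3, 72.3 and 68.8 for TNF-α+WBT. Ccl2, a chemokine that draws monocytes, had 38.1, 32.7 and 37.1 FPKM for Con, 265, 262 and 269 for TNF-α and 210, 198 and 204 for TNF-α+WBT. The complement gene C3 had 8.68, 9.52 and 8.11 FPKM for Con, 164, 174 and 161 for TNF-α and 138, 153 and 135 for TNF-α+WBT. For each of these 3 genes the groups did not overlap, with Con lowest and TNF-α highest.

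All 38 mitosis genes were transcribed in every library. Above 1 FPKM in all 9 libraries were 37 of them, the exception being Cdc25c. By their mean over the 9 libraries, 8 members lay above 10 FPKM, 17 between 5 and 10, and 13 below 5, with a median of 6.22 FPKM. The least covered member in any library was Cdc25c, with an estimated 26.0 fragments, and no member read 0. All 38 passed the filter for testing, which asked for a value above 0 in at least 3 libraries. The summed level of the members was 300, 269 and 268 FPKM for Con, 327, 283 and 311 for TNF-α and 289, 265 and 277 for TNF-α+WBT. TNF-α libraries 1 and 3 had the highest sums, and TNF-α library 2 lay within the range of the Con libraries, so the groups overlap. The group means were 279 ± 18.1, 307 ± 22.1 and 277 ± 12.0 FPKM in that order (SD, n = 3 libraries each).

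Among the genes of mitotic entry, Cdk1, the kinase that starts mitosis, had 29.4, 11.1 and 14.0 FPKM for Con, 15.0, 14.3 and 14.7 for TNF-α and 15.8, 15.1 and 14.2 for TNF-α+WBT. Con library 1 stands alone at the top, and Con library 2 is the lowest of all 9. Ccnb1, which encodes cyclin B1, had 9.16, 9.17 and 6.38 FPKM for Con, 8.17, 9.91 and 12.4 for TNF-α and 8.55, 6.88 and 7.85 for TNF-α+WBT. The groups overlap, and TNF-α libraries 2 and 3 are the highest. Cdc25c, a phosphatase that activates Cdk1, had 1.53, 1.14 and 1.44 FPKM for Con, 1.26, 1.75 and 1.61 for TNF-α and 0.696, 1.11 and 1.11 for TNF-α+WBT. All 3 TNF-α+WBT libraries lie below the other 6. The remaining entry genes, Ccna2, Ccnb2, Cdc25b and Foxm1, ranged from 3.88 FPKM (Cdc25b) to 11.1 FPKM (Ccna2) over the 9 libraries.

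Of the mitotic kinases, Plk1, which acts from entry to cytokinesis, had 6.44, 5.89 and 5.73 FPKM for Con, 6.66, 6.70 and 7.59 for TNF-α and 5.76, 5.87 and 5.96 for TNF-α+WBT. Every TNF-α library lies above the other 6, while Con and TNF-α+WBT overlap. Aurka, the kinase of the spindle poles, ranged from 3.59 to 5.30 FPKM. Within the spindle checkpoint the most abundant member was Bub3, a scaffold that brings Bub1 to kinetochores, with 32.1, 21.5 and 22.0 FPKM for Con, 27.9, 21.9 and 24.1 for TNF-α and 28.9, 22.1 and 23.9 for TNF-α+WBT. Library 1 is the highest of each group, and the groups overlap almost wholly. The other checkpoint genes, Bub1, Bub1b, Mad2l1 and Ttk, ranged from 1.94 FPKM (Ttk) to 7.34 FPKM (Mad2l1).

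In the chromosomal passenger complex, which corrects faulty attachments, Birc5 (survivin) had 9.90, 9.64 and 9.06 FPKM for Con, 11.3, 10.6 and 11.2 for TNF-α and 9.08, 8.60 and 9.72 for TNF-α+WBT. Each TNF-α library lies above each of the other 6. Incenp, the scaffold of the complex, had 8.63, 11.5 and 10.7 FPKM for Con, 14.1, 11.5 and 10.6 for TNF-α and 12.9, 10.2 and 10.9 for TNF-α+WBT, and the groups overlap. Aurkb, its kinase, and Cdca8 (borealin) ranged from 5.25 FPKM (Aurkb) to 8.16 FPKM (Cdca8). At the kinetochore, Cenpa, the histone H3 variant that marks centromeres, had 14.4, 15.1 and 13.6 FPKM for Con, 14.9, 11.5 and 14.2 for TNF-α and 11.9, 11.8 and 11.3 for TNF-α+WBT. The 3 TNF-α+WBT libraries lie below all Con libraries, and TNF-α library 2 lies among them. Cenpe, Cenpf, Ndc80 and Nuf2, which link kinetochores to microtubules, ranged from 1.48 FPKM (Cenpf) to 5.88 FPKM (Nuf2).

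Tpx2, which activates Aurora A on the spindle, had 6.28, 5.29 and 5.22 FPKM for Con, 7.33, 5.87 and 7.35 for TNF-α and 6.57, 6.12 and 6.18 for TNF-α+WBT. TNF-α library 2 lies between the Con libraries, and the other TNF-α libraries are the highest of the 9. The spindle motors and binding proteins Kif11, Kif2c and Nusap1 ranged from 1.96 FPKM (Kif2c) to 5.66 FPKM (Kif11). Anln (anillin), which organises the cleavage furrow, had 11.1, 10.8 and 10.5 FPKM for Con, 12.9, 10.7 and 12.1 for TNF-α and 11.5, 10.6 and 11.4 for TNF-α+WBT, again with TNF-α library 2 among the Con values. The other cytokinesis genes, Kif20a, Kif23, Prc1 and Ect2, ranged from 4.28 FPKM (Kif23) to 11.5 FPKM (Prc1).

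Mitotic exit was led by Ube2c, the ubiquitin-conjugating enzyme of the anaphase-promoting complex, with 13.6, 12.3 and 12.4 FPKM for Con, 12.4, 12.5 and 14.3 for TNF-α and 10.5, 10.9 and 12.6 for TNF-α+WBT. The groups overlap, and TNF-α+WBT libraries 1 and 2 are the lowest. Cdc20, which activates that complex, Pttg1 (securin) and Espl1 (separase) ranged from 2.94 FPKM (Pttg1) to 11.6 FPKM (Cdc20). Top2a, the topoisomerase that untangles sister chromatids and the most abundant member, had 26.3, 27.1 and 27.7 FPKM for Con, 34.5, 31.9 and 32.3 for TNF-α and 30.1, 27.4 and 27.8 for TNF-α+WBT. Its TNF-α libraries lie above the other 6, and Con and TNF-α+WBT overlap. Mki67, whose Ki-67 protein coats mitotic chromosomes and serves as a marker of proliferation, had 5.43, 5.81 and 6.18 FPKM for Con, 7.37, 5.90 and 7.08 for TNF-α and 6.44, 6.06 and 5.47 for TNF-α+WBT. For Mki67 too, TNF-α library 2 lies among the Con values.

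**Figure D1:**
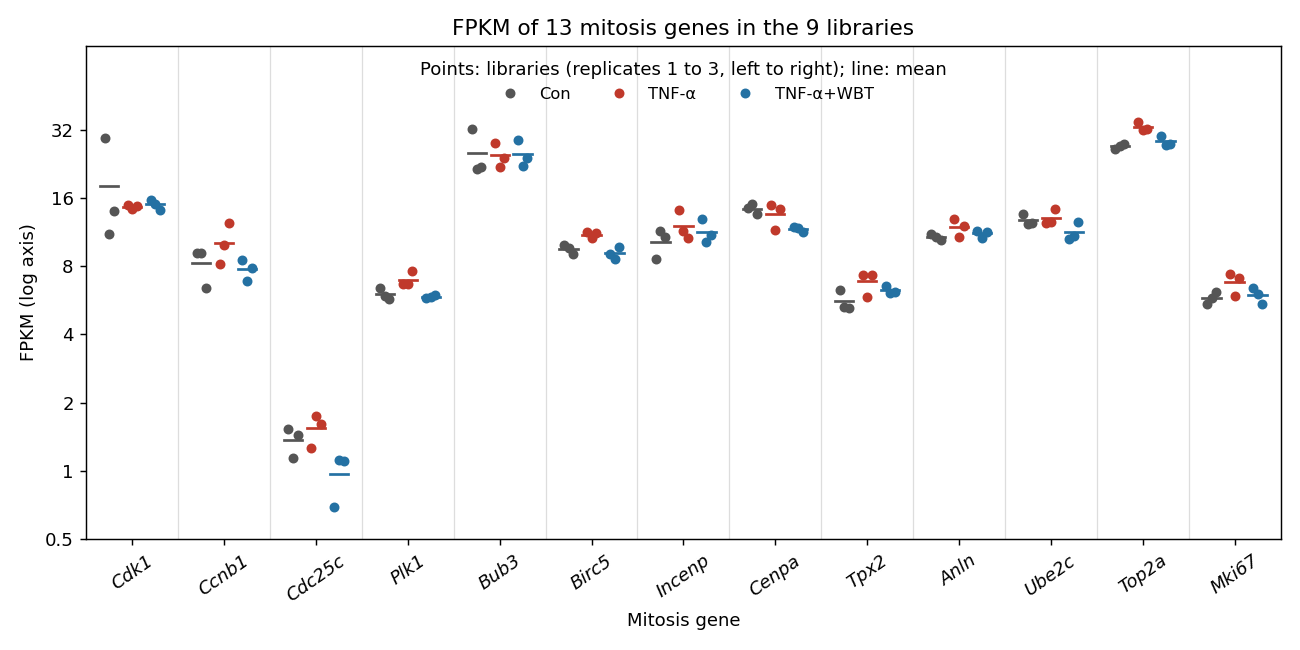
FPKM (log axis) of 13 mitosis genes in the 9 libraries, with 1 point per library coloured by group (replicates 1 to 3 from left to right) and a line at the group mean. The 3 TNF-α points of Top2a (31.9 to 34.5 FPKM) lie above its other 6, and Cdk1 has 1 Con library at 29.4 FPKM, far from the rest.

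The median coefficient of variation of the members was 7.01% for Con, 10.2% for TNF-α and 7.40% for TNF-α+WBT. In Con it ran from 2.55% for Top2a to 54.3% for Cdk1. Many members shared the order of the libraries within a group. Library 2 held the lowest value of its group for 28 of the 38 members for TNF-α and for 22 for TNF-α+WBT, beside 11 for Con, and library 1 held the highest for 20 for Con, 26 for TNF-α and 22 for TNF-α+WBT. Of all 9 libraries, TNF-α library 1 was the highest for 22 members and TNF-α library 3 for 10. The median member lay 0.30, 0.06 and 0.21 above the Con mean on the log2 scale in TNF-α libraries 1, 2 and 3. In the TNF-α+WBT libraries the same medians were 0.10, -0.03 and 0.02.

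**Figure D2:**
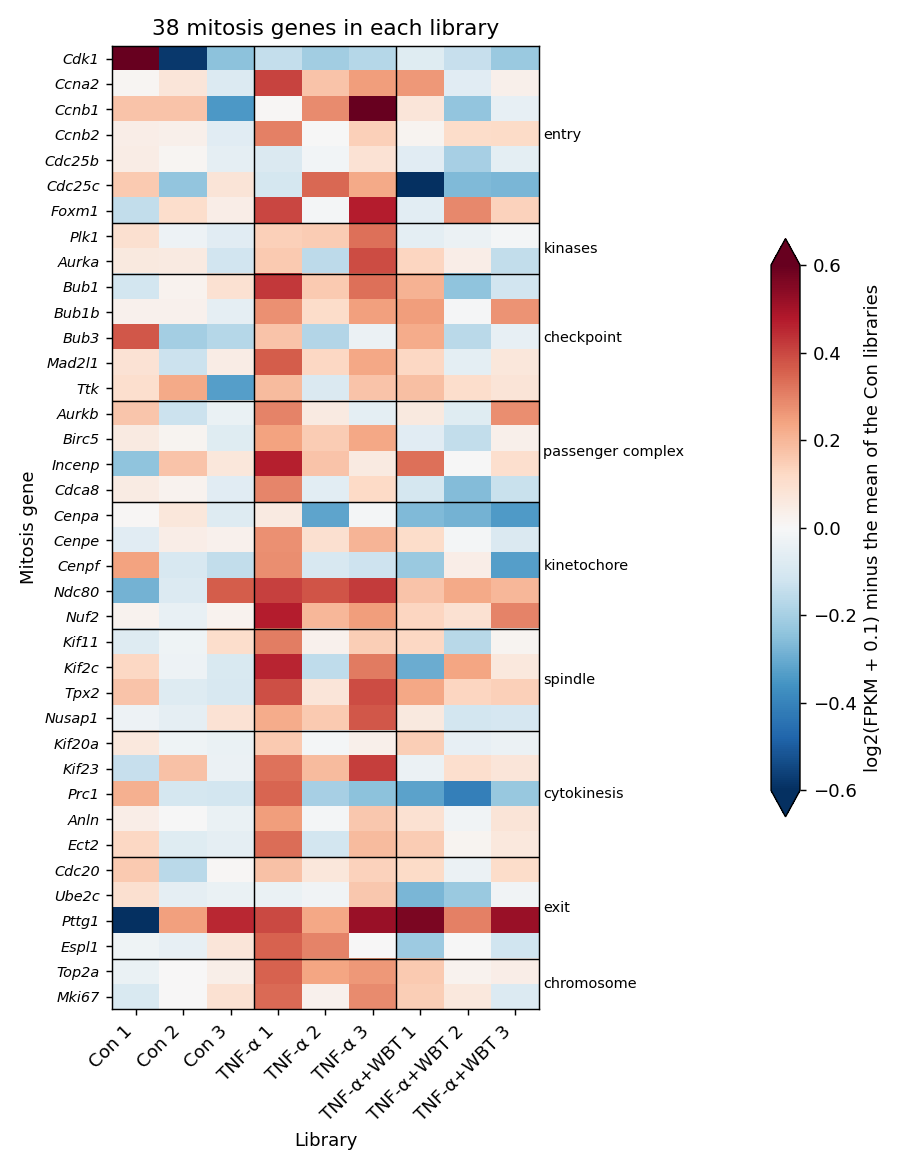
Each of the 38 mitosis genes (vertical axis, grouped by role) in each of the 9 libraries (horizontal axis), coloured by log2(FPKM + 0.1) minus the mean of the Con libraries. TNF-α libraries 1 and 3 are the reddest columns, with medians of 0.30 and 0.21, and TNF-α library 2, at 0.06, is paler.

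The comparison of TNF-α with Con asks how the cytokine moves these genes. Differences are given as log2 fold changes of FPKM + 0.1 from 1 limma model over all 9 libraries, with p-values adjusted by Benjamini-Hochberg over all 25417 genes tested, and a gene is called at an adjusted p under 0.05. Top2a was the 1 mitosis gene called. It rose by a log2 fold change of 0.28 (SE 0.05, 95% interval 0.17 to 0.40, limma adjusted p = 0.0135), a ratio of 1.22, and all 3 TNF-α libraries lay above all 3 Con libraries. Across all genes tested limma called 4.86% in this comparison, and 8.37% of those averaging at least 1 FPKM. The 1 of 38 (2.63%) lies below both shares. Top2a is at chr11:98992943-99024189 on the minus strand (GRCm38, GENCODE M21). Its call depends on the model and on 1 library: the limma adjusted p was 0.0813 without the intensity trend and 0.0552 without Con library 1, within a range of 0.00862 to 0.0813 over 20 alternatives. An exact two-sided permutation test of 3 libraries against 3 cannot go below p = 0.1.

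Counting the called Top2a, 10 of the 38 members had an unadjusted limma p under 0.05 (26.3%), against 16.1% of all genes, and all 10 were higher with TNF-α. Of all genes 8.63% had such a p and were higher. All 38 members average at least 1 FPKM, and of the 12684 genes tested that do so 24.1% had such a p, with 12.9% higher. They were Top2a, Birc5, Nuf2, Kif23, Ccna2, Plk1, Mad2l1, Tpx2, Ndc80 and Nusap1. In 12 members every TNF-α library lay above every Con library, against 11.1% of all genes and 15.5% of those averaging at least 1 FPKM, and in 0 below, against 10.2% and 14.6%. The study itself asked for a p under 0.05, taken here as unadjusted, and more than a 2-fold difference, which was met by 2.42% of all genes and by 0 members. In all, 33 of 38 members had a log2 fold change above 0, where 50.7% of all genes tested did. The 5 members below 0 were Cdk1, Cenpa, Prc1, Bub3 and Cdc25b. The median was 0.20, beside 0.00 over all genes tested, and the members ran from -0.17 (Cdk1) to 0.40 (Ndc80). The size of this shift depends on which TNF-α library is included: the median was 0.13 without TNF-α library 1 and 0.24 without TNF-α library 2. The count at an unadjusted p under 0.05 was 17 without TNF-α library 2, and 5, 6 and 5 without Con library 2, TNF-α library 1 and TNF-α library 3.

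The median lay above 0 in each of the 9 roles, and a shift was not tested by role. Entry, checkpoint, kinetochore and cytokinesis also held members below 0. The medians of the log2 fold change were 0.16 for the 7 entry genes (range -0.17 to 0.30), 0.21 for the 5 checkpoint genes, 0.16 for the 4 passenger genes, 0.19 for the 5 kinetochore genes, 0.23 for the 4 spindle genes, 0.13 for the 5 cytokinesis genes, 0.17 for the 4 genes of exit, 0.17 for the 2 kinases and 0.25 for the 2 chromosome genes. The only call by limma in these 9 roles was Top2a, a chromosome gene. Birc5 had a log2 fold change of 0.21 (SE 0.06, limma adjusted p = 0.121) and Plk1 of 0.21 (SE 0.08, limma adjusted p = 0.199). Tpx2 stood at 0.28 (SE 0.11, limma adjusted p = 0.236) and Mki67 at 0.22 (SE 0.10, limma adjusted p = 0.358). For Ccnb1 the value was 0.30 with an interval of -0.12 to 0.72, and it was 0.13 without Con library 3 and 0.44 without TNF-α library 1. For Cdk1 it was -0.17 with an interval of -0.85 to 0.50, and it turned to 0.24 without Con library 1.

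Markers of other cell types moved in the same comparison. Limma called 5 of the 12 Schwann cell genes lower with TNF-α than in Con and 0 higher, beside 4.86% of all genes called, with 11 of the 12 below 0. It called 4 lower and 0 higher for TNF-α+WBT against Con, beside 3.71%. Between TNF-α+WBT and TNF-α it called 0 of the 12, with 3 at an unadjusted p under 0.05, all higher with WBT, against 6.31% of all genes, and 10 above 0. The Schwann cell genes thus lay mostly on the other side of 0 from the mitosis genes in the comparisons of TNF-α with Con and of TNF-α+WBT with TNF-α. Of the 17 fibroblast genes tested, limma called 3 higher and 2 lower with TNF-α than in Con. The part of either list in the values of the mitosis genes was not tested. Of the 18 macrophage genes 10 could be tested, with 0 called by limma for TNF-α against Con. At an unadjusted p under 0.05 were 2, 1 higher and 1 lower, against 16.1% of all genes.

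The comparison of TNF-α+WBT with TNF-α asks what the tablet adds. Limma called 0 of the 38 mitosis genes, and 0.00393% of all genes, which is 1 of the 25417 tested. At an unadjusted limma p under 0.05 were 10 members, against 6.31% of all genes and 6.91% of those averaging at least 1 FPKM, and all 10 were lower with WBT: Birc5, Top2a, Plk1, Nusap1, Cdca8, Espl1, Cdc25c, Kif23, Bub1 and Ube2c. With such a p and lower were 3.43% of all genes and 3.61% of those averaging at least 1 FPKM. In 10 members every TNF-α+WBT library lay below every TNF-α library, against 5.61% of all genes and 6.44% of those averaging at least 1 FPKM, and in 0 above, against 5.39% and 6.67%. The thresholds of the study were met by 1.12% of all genes and by 0 members. Below 0 were 34 of the 38 log2 fold changes, where 50.7% of all genes tested were. The median was -0.18, beside -0.00 over all genes, and the 4 members above 0 were Pttg1, Ttk, Cdk1 and Bub3. Because the TNF-α libraries serve in this comparison and in the one with Con, a high or low TNF-α library moves both, in opposite directions, and the values are only set side by side.

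The members with the smallest p in this comparison were Birc5 and Top2a. Birc5 had a log2 fold change of -0.27 (SE 0.06, 95% interval -0.41 to -0.13), a ratio of 0.829, with a limma adjusted p of 0.465. Top2a had -0.21 (SE 0.05, 95% interval -0.32 to -0.10), a ratio of 0.865, with a limma adjusted p of 0.473. Plk1 followed at -0.25 (SE 0.08, limma adjusted p = 0.649). The lowest value was that of Cdc25c, at -0.63 (SE 0.22, limma adjusted p = 0.713). For Cdc25c it was -0.42 without TNF-α+WBT library 1 and ran from -0.76 to -0.37 over the 20 alternatives. By role, the medians were -0.17 for entry, -0.04 for the checkpoint, -0.18 for the passenger complex, -0.19 for the kinetochore, -0.19 for the spindle, -0.09 for cytokinesis, -0.13 for exit, -0.18 for the kinases and -0.19 for the chromosome genes. Mki67 stood at -0.17 (SE 0.10) and Ccnb1 at -0.37 (SE 0.18), neither called by limma. With 1 library left out, Mki67 ran from -0.27 to -0.11 and Ccnb1 from -0.51 to -0.22. Leaving out TNF-α library 1 brought the median of all members to -0.11 and the number above 0 from 4 to 9. Leaving out TNF-α library 2 brought that median to -0.23. The count at an unadjusted p under 0.05 was 5 without TNF-α library 3 and 14 without TNF-α library 2.

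TNF-α+WBT against Con asks what both agents together leave changed. Limma called 0 members, against 3.71% of all genes, and 1 member had an unadjusted p under 0.05, against 14.7% of all genes and 21.6% of those averaging at least 1 FPKM, a count that was 3 without Con library 3. The 1 member was Cenpa, at -0.30 (SE 0.09, 95% interval -0.51 to -0.09, limma adjusted p = 0.154), a ratio of 0.813. All 3 of its TNF-α+WBT libraries lay below all 3 Con libraries. Cenpa was called at an adjusted p of 0.0308 when TNF-α library 2, which enters only the shared estimate of spread, was left out, within a limma range of 0.0308 to 0.343 over 20 alternatives. Nuf2 was the 1 member whose TNF-α+WBT libraries all lay above Con, against 10.2% of all genes. The 5 members whose TNF-α+WBT libraries all lay below Con, against 9.25% of all genes, were Cenpa, Cdc25c, Prc1, Cdca8 and Cdc25b. The thresholds of the study were met by 2.29% of all genes and by 0 members. With 23 members above 0 and 15 below, the median was 0.01.

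Set side by side, Top2a had log2 fold changes of 0.28 for TNF-α against Con, -0.21 for TNF-α+WBT against TNF-α and 0.07 for TNF-α+WBT against Con. Birc5 had 0.21, -0.27 and -0.06 in the same order, Plk1 0.21, -0.25 and -0.04, and Mki67 0.22, -0.17 and 0.04. Cenpa had -0.09, -0.21 and -0.30, so it was lowest in the last group. Ube2c had 0.03, -0.20 and -0.17. Like Top2a and Mki67, Tpx2, at 0.28, -0.11 and 0.17, and Anln, at 0.13, -0.09 and 0.05, lay between Con and TNF-α in the last group. With 1 library left out, Anln ran from 0.08 to 0.21 for TNF-α against Con and from -0.16 to -0.03 for TNF-α+WBT against TNF-α, and Tpx2 from -0.22 to -0.06 and Cenpa from -0.32 to -0.14 for the latter. In TNF-α+WBT against Con, Birc5 ran from -0.11 to -0.02 and Top2a from 0.03 to 0.10. These 3 comparisons share their libraries in pairs, so their values are not independent of each other.

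**Figure D3:**
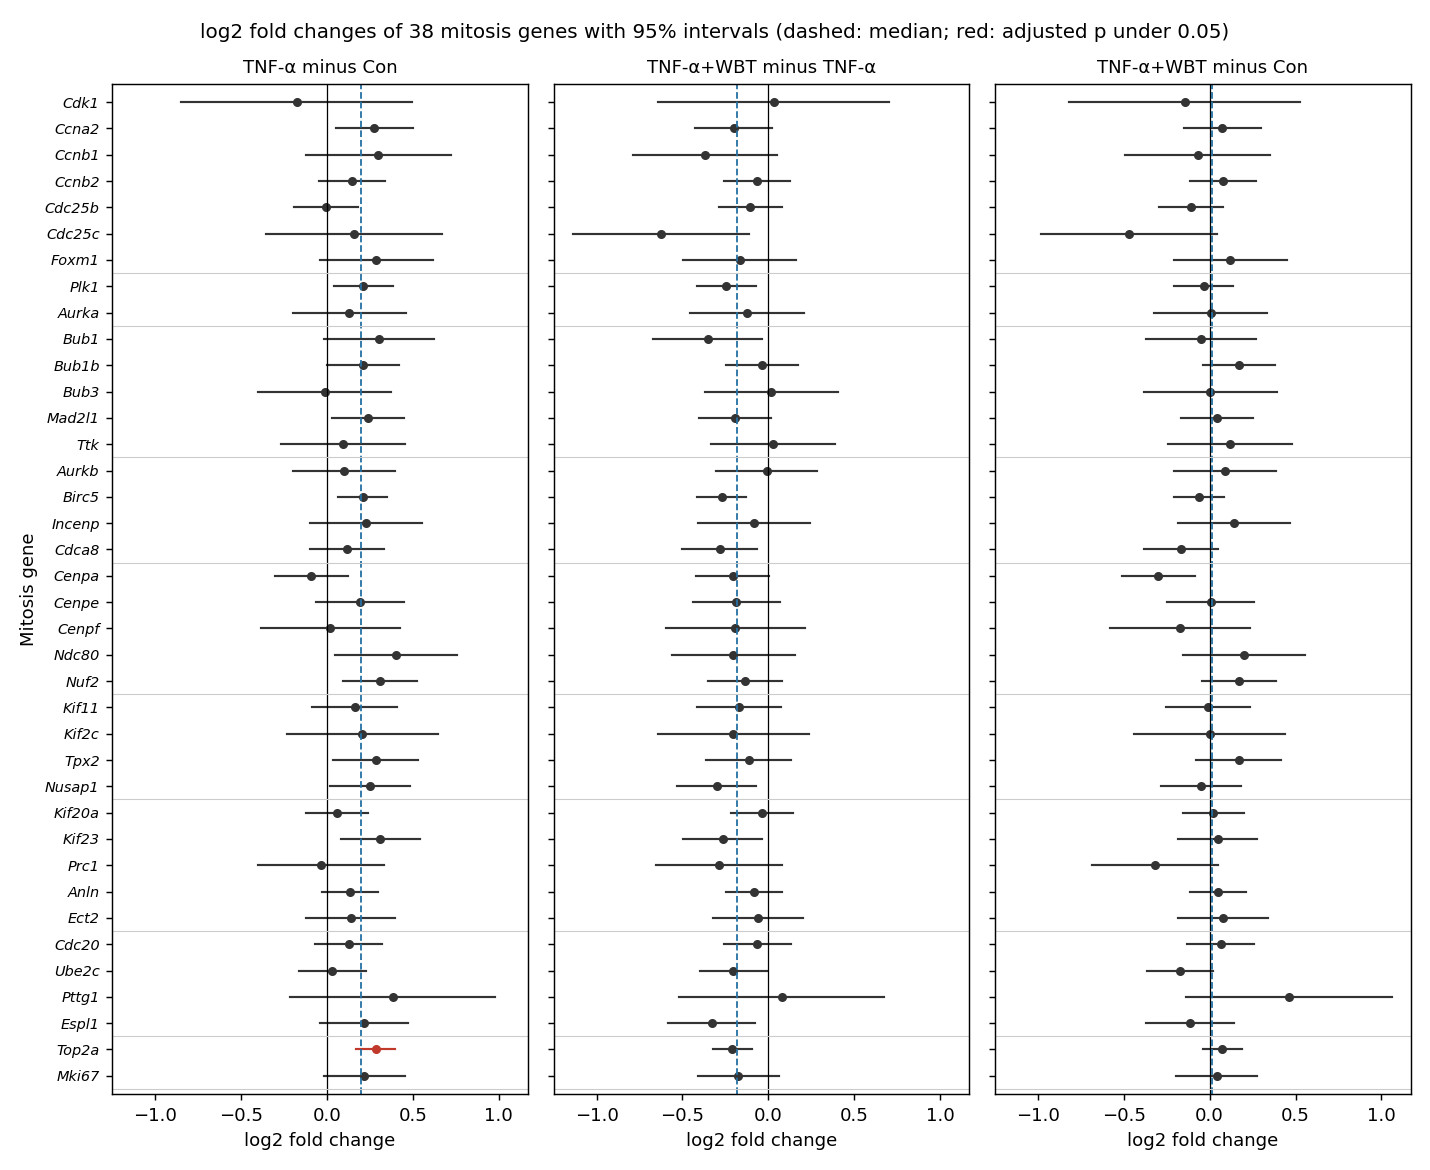
Log2 fold changes of the 38 mitosis genes (points) with 95% limma intervals (lines), 1 panel per comparison, with the median of the members as a dashed line and the 1 called gene, Top2a, in red. The medians are 0.20 for TNF-α against Con, -0.18 for TNF-α+WBT against TNF-α and 0.01 for TNF-α+WBT against Con.

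The second deposited table divides each gene over its transcripts, 236 for the 38 members. Ccnb2 has a single transcript, and the other 37 members have several, up to 14 for Prc1. In 11 of these 37 the most abundant transcript held over 80% of the FPKM in every library, and in 12 members its share moved by over 50 percentage points between libraries. It was a coding transcript in 36 of all 38 members, the exceptions being Incenp and Cenpa. Because FPKM divides by length, fragments moved between a short and a long transcript would change the gene's value with no change in its RNA. For Cdk1, in Con library 1, the 1253-base transcript had 25.6 FPKM and the 4375-base transcript 1.59, whereas Con libraries 2 and 3 had 0.413 and 1.23 for the short transcript and 6.53 and 6.93 for the long one. In the 6 treated libraries the long transcript of Cdk1 ran from 7.47 to 8.95 FPKM. Whether fragments were assigned differently or the cells used another transcript was not tested.

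Incenp has 9 transcripts, and by mean share the most abundant were a retained-intron transcript of 3449 bases and a coding transcript of 2643 bases. The retained-intron transcript held 70.6%, 17.1% and 24.9% of Incenp for Con, 63.0%, 71.4% and 78.6% for TNF-α and 18.2% to 23.4% for TNF-α+WBT. The coding transcript held 51.0% to 65.4% of Incenp in the libraries where the other was low, and at most 0.0774% in the rest. Con library 1 thus sits with the TNF-α libraries. For Plk1, the coding transcript of 2199 bases had 4.82, 4.80 and 4.65 FPKM for Con, 6.33, 6.38 and 7.25 for TNF-α and 5.49, 5.37 and 5.71 for TNF-α+WBT. On this transcript the 3 groups of Plk1 do not overlap, with Con lowest and TNF-α highest, a pattern picked out after the values were seen.

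A scale that does not move when fragments are assigned to another transcript of the gene was therefore added after seeing the data. It does move if the cells use a longer or shorter transcript, since a longer transcript gives more fragments. Whether this raised any of the values below was not tested. Each transcript's FPKM was multiplied by its length in kilobases and summed per gene, a length-weighted value that follows the gene's fragments, and the same limma model was fitted to 25332 genes. For TNF-α against Con, 4 members were called, Plk1, Kif23, Incenp and Top2a, all higher, against 6.56% of all genes. On the FPKM scale the share called was higher among genes averaging at least 1 FPKM, at 8.37% beside 4.86% of all genes. In FPKM × kb, Plk1 had 11.6, 11.3 and 10.9 for Con, 14.1, 14.2 and 16.2 for TNF-α and 12.3, 12.1 and 12.7 for TNF-α+WBT. No pair of groups overlaps for Plk1 on this scale. Plk1 rose by 0.39 (SE 0.07, limma adjusted p = 0.0119), and Kif23, a motor of the central spindle, by 0.36 (SE 0.08, limma adjusted p = 0.0252). Incenp had 25.4, 27.5 and 28.0 FPKM × kb for Con, 37.4, 32.3 and 32.9 for TNF-α and 30.3, 27.3 and 28.7 for TNF-α+WBT, with the TNF-α libraries above the other 6. Incenp rose by 0.34 (SE 0.07, limma adjusted p = 0.0252) and Top2a by 0.24 (SE 0.06, limma adjusted p = 0.0431).

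Cdk1 on this scale had 40.3, 31.5 and 35.1 FPKM × kb for Con, 44.0, 40.8 and 39.7 for TNF-α and 40.6, 40.0 and 37.6 for TNF-α+WBT. Con library 1 no longer stands apart, and the log2 fold change of Cdk1 for TNF-α against Con turned from -0.17 to 0.23 (SE 0.09, limma adjusted p = 0.202). Ccnb1 had 17.9, 17.5 and 13.8 FPKM × kb for Con, 17.7, 17.8 and 18.2 for TNF-α and 16.4, 12.4 and 14.6 for TNF-α+WBT. Con library 1 thus lies among the TNF-α libraries of Ccnb1. Its log2 fold change for TNF-α against Con went from 0.30 to 0.13 (SE 0.12, limma adjusted p = 0.657). The median of the 38 members was 0.16 for TNF-α against Con, with 36 above 0. Between TNF-α+WBT and TNF-α limma called 0 members, against 0.0158% of all genes, with 14 at an unadjusted p under 0.05 against 6.75% of all genes, 3 above 0 and a median of -0.17. Between TNF-α+WBT and Con limma called 0 members, against 5.19% of all genes, with a median of 0.02. The count at an unadjusted p under 0.05 there was 1, against 16.4% of all genes.

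Exons of 12 members overlap those of another gene, all but Foxm1 and Top2a on the opposite strand, and libraries that do not mark the strand cannot keep such reads apart. Among the members given above library by library these are Plk1, Cdc25c, Ube2c and Top2a, whose neighbour Gm23451 is annotated on the same strand.

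Other genes of the cell cycle were taken from 3 lists. The first holds 127 further genes of mitosis, among them more kinetochore, cohesin, condensin and anaphase-promoting complex genes. For TNF-α against Con limma called 6 of the 127, all higher, which is 4.72% beside 4.86% of all genes. Of genes averaging at least 1 FPKM 8.37% were called. At an unadjusted p under 0.05 were 22 of the 127 (17.3%), 20 higher and 2 lower. This is against 16.1% of all genes and 24.1% of those averaging at least 1 FPKM. Above 0 were 93 of the 127, with a median of 0.14. Over the 20 alternatives the count called ran from 1, without Con library 3 or TNF-α library 3, to 8. Psrc1, a spindle-binding protein, had 8.45, 9.62 and 10.4 FPKM for Con, 14.4, 15.2 and 14.7 for TNF-α and 15.3, 16.0 and 13.8 for TNF-α+WBT. Both treated groups of Psrc1 lie above Con. It rose by 0.64 (SE 0.08, limma adjusted p = 0.0031) with TNF-α. Fbxo5, the inhibitor of the anaphase-promoting complex, rose by 0.43 (SE 0.09, limma adjusted p = 0.0374), Spdl1, which recruits dynein to kinetochores, by 0.47 (SE 0.11, limma adjusted p = 0.0499) and Pimreg by 0.37 (SE 0.07, limma adjusted p = 0.0183). The complex subunits Anapc13 and Anapc7 rose by 0.29 and 0.27 (limma adjusted p = 0.0127 and 0.0235), and Anapc7 had 0.14 on the length-weighted scale. Of these calls only that of Psrc1 was kept under all 20 alternatives, while Anapc13 and Pimreg kept theirs in 16 each, Anapc7 in 11, Fbxo5 in 9 and Spdl1 in 3. For TNF-α+WBT against TNF-α limma called 0 of the 127, with 23 at an unadjusted p under 0.05 against 6.31% of all genes, 91 below 0 and a median of -0.05. For TNF-α+WBT against Con it called 3, beside 3.71% of all genes: Psrc1 at 0.66, Anapc13 at 0.24 and Anapc7 at 0.24. There Psrc1 kept its call under all 20 alternatives, Anapc13 in 9 and Anapc7 in 4.

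The 52 replication genes, which copy the DNA before mitosis, had 46 log2 fold changes above 0 for TNF-α against Con and a median of 0.16. At an unadjusted p under 0.05 were 12 of the 52 (23.1%), 11 higher and 1 lower. This is against 16.1% of all genes and 24.1% of those averaging at least 1 FPKM. Limma called 2 of the 52, 3.85% beside 4.86% of all genes and 8.37% of those averaging at least 1 FPKM. Uhrf1, which maintains DNA methylation, rose by 0.38 (SE 0.08, limma adjusted p = 0.0283). Cdt1, which licenses replication origins, fell by 0.45 (SE 0.06, limma adjusted p = 0.00239). Cdt1 had 12.1, 11.5 and 12.5 FPKM for Con, 9.10, 8.67 and 8.62 for TNF-α and 8.28, 8.92 and 8.86 for TNF-α+WBT, so both treated groups lie below Con. Cdt1 kept its call under all 20 alternatives and Uhrf1 in 13, losing it without the intensity trend and without any 1 of the Con or TNF-α libraries. Against TNF-α alone, TNF-α+WBT gave 0 calls by limma, 18 at an unadjusted p under 0.05 against 6.31% of all genes, 49 of 52 below 0 and a median of -0.15. Against Con it gave 1 call, Cdt1 at -0.46, beside 3.71% of all genes, and a median of 0.01. The replication genes thus had medians close to those of the mitosis genes in all 3 comparisons, and the difference between the lists was not tested.

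The last list holds genes of G1 and of cell cycle arrest. Of the 35 tested, limma called 7 for TNF-α against Con, beside 4.86% of all genes. Trp53, the gene of p53, rose by 0.59 (SE 0.03), Ccnd1, which encodes cyclin D1, by 0.52 (SE 0.04), and Cdkn1a, the p21 inhibitor, by 0.42 (SE 0.09, limma adjusted p = 0.0362). Gadd45b rose by 0.50 and Ccng1 by 0.30, while Gadd45a, a stress gene that can hold cells in G2, fell by 0.65 (SE 0.03). Ccnd1 had 87.1, 85.1 and 82.5 FPKM for Con, 122, 120 and 123 for TNF-α and 116, 109 and 117 for TNF-α+WBT, and Con lies below the rest. Cdkn1a had 12.7, 13.9 and 12.0 FPKM for Con, 16.8, 17.8 and 17.1 for TNF-α and 17.0, 21.3 and 17.2 for TNF-α+WBT, also with Con lowest. Cdk6, a partner of cyclin D, had 5.82, 5.34 and 6.23 FPKM for Con, 11.4, 11.7 and 12.0 for TNF-α and 12.4, 9.41 and 8.65 for TNF-α+WBT. It rose with TNF-α (95% limma interval 0.72 to 1.29), and by 0.64 on the length-weighted scale. The call of Cdkn1a was kept in 14 of the 20 alternatives, and lost without the intensity trend and without Con library 1 or 3 or any 1 of the TNF-α libraries, and the other 6 calls were kept in all. Myc, a driver of growth, had 0.32 (SE 0.15, limma adjusted p = 0.341). In TNF-α+WBT against Con limma called 7 of the 35: Trp53 at 0.54, Ccnd1 at 0.42, Cdk6 at 0.79, Cdkn1a at 0.51, Gadd45b at 0.47, Ccng1 at 0.33 and Gadd45a at -0.48, beside 3.71% of all genes. Under the 20 alternatives Cdkn1a kept this call in 16 and Cdk6 in 19, and the other 5 genes in all, and Cdk6 had 0.46 on the length-weighted scale. For TNF-α+WBT against TNF-α it called 0, with 3 at an unadjusted p under 0.05 against 6.31% of all genes, and a median of -0.03.

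The promoters of the mitosis genes share sequence features that the list did not use. Many genes of G2 and mitosis carry a cell cycle homology region (CHR), where the DREAM complex keeps them silent in resting cells, and CCAAT boxes, where NF-Y binds. Promoter windows of 300 bases, 250 before and 50 after the start, were taken from RefSeq (GRCm38.p6) for 31 of the 38 members, in 34 windows since Bub3, Ect2 and Prc1 have 2 each. Cdc25c, Incenp, Ccna2, Kif20a, Foxm1, Aurkb and Tpx2 had no entry in the promoter table used here. On both strands the CHR letters TTTGAA or TTCGAA stood in 27 of the 34 windows (79.4%), against 19.2% of all 32851 promoter windows of the same length. CCAAT stood in 26 (76.5%), against 37.4%, and both motifs in 24 (70.6%), against 7.52%. The E2F letters TTTGGCGC or TTTCCCGC stood in 0 of the 34 and in 1.56% of all. CHR and CCAAT matches overlapped in 1 window. Base composition was not matched between the windows, and a match is a string of letters, not a tested site.

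Shown are the 90 bases before the start, 5′ to 3′ on the gene's strand, for 1 member each of entry (Cdk1), the kinases (Plk1), the chromosome genes (Top2a) and exit (Ube2c), to show where the letters lie in members described above. Capitals mark CHR and CCAAT matches on either strand, so that ATTGG is CCAAT read on the other strand and TTCAAA is TTTGAA. The windows are chr10:69352913-69353002 (minus strand) for Cdk1, chr7:122159345-122159434 (plus strand) for Plk1, chr11:99024190-99024279 (minus strand) for Top2a and chr2:164769839-164769928 (plus strand) for Ube2c.
Cdk1: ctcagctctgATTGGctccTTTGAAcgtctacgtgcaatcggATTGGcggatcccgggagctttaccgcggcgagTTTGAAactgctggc
Plk1: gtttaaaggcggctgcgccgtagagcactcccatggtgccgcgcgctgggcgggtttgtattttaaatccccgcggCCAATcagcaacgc
Top2a: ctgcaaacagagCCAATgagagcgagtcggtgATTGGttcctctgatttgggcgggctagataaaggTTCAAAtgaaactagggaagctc
Ube2c: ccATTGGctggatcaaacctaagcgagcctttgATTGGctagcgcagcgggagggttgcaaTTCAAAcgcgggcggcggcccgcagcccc
Cdk1 has 2 matches of each motif in this stretch, and Top2a and Ube2c have 1 CHR match close to the start with 2 CCAAT matches before it. Plk1 has 1 CCAAT match here, and its CHR match lies 31 bases after the start, outside the stretch printed. Of the other members, Birc5, Mad2l1, Nuf2, Nusap1 and Pttg1 had neither motif in their windows, whereas 24 of the 31 members had a CHR match. Birc5, Mad2l1, Nuf2 and Nusap1 were among the 10 members with an unadjusted limma p under 0.05 for TNF-α against Con. So were Top2a, Kif23, Plk1 and Ndc80, which carry a motif, and Ccna2 and Tpx2, which had no window. Members with and without the motifs were not compared by a test.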

How the data were processed

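The authors deposited FPKM per gene and per transcript for 9 libraries, which the study traces to HISAT2, StringTie and Ballgown without versions or a genome build in the sources used here. Of the gene identifiers 98.1% were in GENCODE M21. Depth was estimated from 10717 genes with a single transcript over 1000 bases, and fragment numbers carry the error of that estimate. The 25417 genes with a value over 0 in 3 or more libraries were compared on log2(FPKM + 0.1) with limma 3.58.1 in R 4.3.3 (lmFit, and eBayes with trend), 1 mean per group, with Benjamini-Hochberg adjustment over all genes tested. Tables and figures used Python 3.11.15, pandas 2.3.3, numpy 2.4.6 and matplotlib 3.10.9. The model was tested on simulated data.

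Named in full were Cdk1, Ccnb1, Plk1, Top2a and Mki67, every member called, the 2 members with the smallest p per comparison and the most abundant member of each role. From the other cell cycle lists these were the called genes, at most 6 per list and comparison, and Cdkn1a, Ccnd1 and Myc, and from the TNF-α response list C3, Ccl2 and Nfkbia. Members that fall outside this rule and are named with values were chosen after their values were seen. The members and lists were chosen with earlier results of these data known.

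Alternatives covered the pseudocount, the filter, the trend, fits to the 2 compared groups alone, quantile normalization, median centring, summed transcript values, a replicate block, the thresholds of the study and each library left out in turn. The length-weighted scale, which leaves out 1059 genes without transcripts in GENCODE M21, was added after seeing the data. Nothing else was left out.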

Additional observations from a re-analysis of the deposited data

How the results depend on the processing

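With TNF-α against Con, the number of mitosis genes called by limma was 1 and became 0 without the intensity trend, 0 by the thresholds of the study, 4 on the length-weighted scale, and 0 (without Con library 1) to 2 (without Con library 3) with 1 library left out. In 3 of 9 rows, each setting 1 library against the 3 of another group, the library of the same number correlated best. Among the members, library 1 was nonetheless most often the highest in each group, and with the replicate number as a block the count was 1. With TNF-α+WBT against Con the count was 0 and became 1, Cenpa, without TNF-α library 2, in a range of 0 to 1. It was 0 for TNF-α+WBT against TNF-α in all runs. With 1 library left out the median log2 fold change of the members ran from 0.13 to 0.24 for TNF-α against Con, from -0.23 to -0.11 for TNF-α+WBT against TNF-α and from -0.02 to 0.04 for TNF-α+WBT against Con.

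Of 780 log2 fold changes of named members under alternatives, 747 kept sign and call, 2 lost the call (Top2a), 3 gained it (Plk1, Incenp, Cenpa) and 28 changed sign, none of them called. The filter, the trend, the replicate block and fits to the 2 compared groups leave a fold change as it is. So does leaving out a library of the third group, and in all these only the call could change. On the length-weighted scale Cdk1 turned to 0.23, -0.074 and 0.15 in the 3 comparisons (TNF-α against Con, TNF-α+WBT against TNF-α, TNF-α+WBT against Con), Bub3 to 0.051 and -0.019 in the first and second, and Mki67 to -0.015 and Plk1 to 0.14 in the last. Bub3 also turned to -0.00091 in the last under median centring and to -0.0048 under quantile normalization. With 1 library left out, values that changed sign ran, for TNF-α against Con, from -0.11 to 0.17 (Bub3), -0.46 to 0.24 (Cdk1), -0.16 to 0.021 (Cenpa) and -0.032 to 0.079 (Ube2c). In TNF-α+WBT against TNF-α they ran from -0.092 to 0.11 (Bub3), -0.0053 to 0.071 (Cdk1) and -0.18 to 0.032 (Incenp). In TNF-α+WBT against Con they ran from -0.11 to 0.19 (Bub3), -0.24 to 0.016 (Ccnb1), -0.43 to 0.27 (Cdk1), -0.011 to 0.10 (Mki67) and -0.070 to 0.013 (Plk1). The cause was not tested. Of 640 values of other named genes 550 kept sign and call, 90 lost the call and 0 changed sign. The lowest estimate for a member was 26.0 fragments, in Cdc25c, and the part of depth in the spread was not tested.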
